A study of Mus musculus with 24 samples.

Results

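The heat shock chaperones described here are 10 genes of the protein folding machinery: Hspa1a, Hspa1b, Hspa8, Dnajb1, Hsph1, Bag3, Hspb1, Hsp90aa1, Hspd1 and Hspe1. They were chosen by name from 26373 genes listed in either of 2 count tables, with earlier results of these data known. All 10 were measured and passed the filter on low counts in both. The gene lists below were chosen likewise, so shares called beside those of all genes are description, not a test. RNA was sequenced in bulk from the soft tissue inside the bony inner ear of untreated male C57BL6/J mice (genotype WT) aged 3, 11 and 20 months, with 4 mice at each age. It was also sequenced from inner ear organoids, which are cell clusters grown from the dissociated cochlear epithelium of newborn mice. The organoids fell into 4 groups of 3 libraries: untreated control, TNF-α (tumour necrosis factor, an inflammatory cytokine), RBM25 knockdown by lentivirus, and TNF-α with RBM25 knockdown. All organoids had the genotype WT and had been expanded with EGF, bFGF, IGF and the Wnt pathway activator CHIR99021, then differentiated with CHIR99021 and the Notch pathway inhibitor LY411575, and then kept in low EGF and bFGF. RBM25 binds RNA and acts in splicing. The sources used here give neither a control vector nor how much TNF-α was added and for how long.

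Heat shock proteins hold, fold or refold other proteins. When unfolded proteins build up, heat shock factor 1 (HSF1) is released from its chaperones, forms trimers and binds heat shock elements, repeats of the unit GAA and its reverse complement TTC, in the promoters of chaperone genes. The HSP70 proteins bind exposed stretches of a client protein in a cycle driven by ATP. Partners of the HSP40 class (Dnajb1) start the cycle, and nucleotide exchange factors (Hsph1, Bag3) end it. HSP90 (Hsp90aa1) acts later on clients such as kinases and hormone receptors, small heat shock proteins (Hspb1) hold unfolded clients without ATP, and the chaperonin of mitochondria (Hspd1 with its lid Hspe1) encloses them. In the inner ear, induction of HSP70 is known as a response to heat, noise and ototoxic drugs.

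RefSeq promoter sequences (build GRCm38.p6, which is mm10) were on hand for 8 of the 10 genes, all but Hspa8 and Hsp90aa1. The 250 bases before each start were searched for pairs of heat shock units, GAANNTTC or TTCNNGAA, which read the same on both strands, and for 3 alternating units, GAANNTTCNNGAA or TTCNNGAANNTTC, which contain overlapping pairs. A pair was found in at least 1 window for 6 of the 8 genes, and 3 alternating units for Hspd1 and Hspe1. Of all 32851 promoter windows in the table, 12.8% held a pair and 0.466% held 3 alternating units. These shares are per window and not per gene, and Hspd1, Hsph1 and Dnajb1 had 2 windows each. The windows of Bag3 and Dnajb1 held neither. Shown first are the bases from 150 to 21 before the start of the inducible HSP70 copies and of Hspb1, because these genes carried the largest changes below, with the units of each pair in capitals.
Hspa1a (chr17:34972177-34972306, minus strand): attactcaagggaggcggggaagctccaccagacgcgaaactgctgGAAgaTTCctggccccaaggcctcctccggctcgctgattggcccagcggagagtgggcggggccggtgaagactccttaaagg
Hspa1b (chr17:34959259-34959388, minus strand): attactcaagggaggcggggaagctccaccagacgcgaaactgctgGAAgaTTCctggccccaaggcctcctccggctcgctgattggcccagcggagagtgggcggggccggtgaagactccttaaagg
Hspb1 (chr5:135887769-135887898, plus strand): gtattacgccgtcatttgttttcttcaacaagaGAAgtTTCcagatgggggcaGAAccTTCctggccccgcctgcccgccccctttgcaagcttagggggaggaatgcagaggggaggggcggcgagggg
The windows of Hspa1a and Hspa1b were the same in all 130 bases, and over the 250 bases before the start they differed at 3. Each had 1 pair, at bases 104 to 97 before the start, whereas Hspb1 had 2, at bases 117 to 110 and 97 to 90. For the genes whose window overlaps an annotated exon, 30 bases around the pair are shown, again with the units in capitals.
Hspe1 (chr1:55088053-55088082, plus strand): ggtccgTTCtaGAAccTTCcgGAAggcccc
Hsph1 (chr5:149636351-149636380, minus strand): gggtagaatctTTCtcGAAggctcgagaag
Hspd1 and Hspe1 lie head to head on chromosome 1 and share 112 bases at their 5′ ends, and the 30 bases shown for Hspe1 are, on the other strand, the same element that precedes the second RefSeq start of Hspd1.

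**Figure D1:**
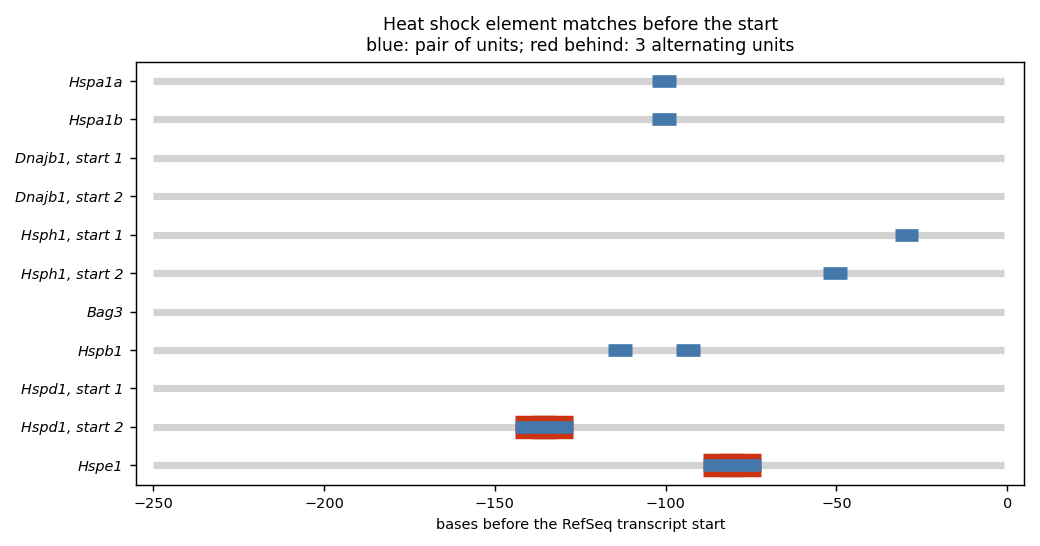
Position of heat shock element matches in the 250 bases before each RefSeq transcript start (x axis, bases before the start) for the 8 genes with a promoter window, with genes of more than 1 start shown once for each. Blue blocks are pairs of units and red blocks behind them 3 alternating units, which were found for Hspd1 and Hspe1. The pair stands at the same place in Hspa1a and Hspa1b.

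Library totals were 30599012 to 38451292 counts in the inner ear and 33802411 to 37048422 in the organoids, and the 10 genes together took 0.337 to 0.479% and 0.172 to 0.227% of them. The lowest count of any of the 10 in a library was 129. The biological coefficient of variation was 19.8% among inner ear libraries and 8.04% among organoid libraries. The labels give separate mice for each age, but nothing says that organoid replicates were separate cultures, so organoid p-values reflect the spread among these libraries alone, and that spread may be technical. Rbm25, the target of the knockdown, stood at 142, 148 and 144 CPM (counts scaled to library size, adjusted by the trimmed mean of M-values) in control organoids and at 96.9, 94.2 and 92.7 CPM with the knockdown. It was 150, 163 and 173 CPM with TNF-α and 103, 122 and 108 CPM with both treatments, so that the knockdown groups did not overlap the others. The sample titles call this group a knockout, and Rbm25 transcripts were present in every library of it (log2 fold change -0.61 against control, SE 0.06, edgeR's adjusted p = 1.01e-07). All 12 hair cell and all 12 supporting cell markers searched had counts in every inner ear library. In the organoids the 12 supporting cell markers did so too (summed, 3730 to 8786 CPM), and the hair cell markers summed to 314 to 822 CPM, with the outer hair cell gene Ocm at 0 in the controls.

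Levels between genes were compared in the deposited FPKM values, which are scaled to gene length. At 3 months the constitutive HSP70 gene Hspa8 stood highest at 843 ± 34.5 FPKM (SD, n = 4), followed by Hsp90aa1 at 375 ± 34.8 FPKM. Hspb1 (77.4 ± 17.4 FPKM), Hspd1 (72.7 ± 4.39 FPKM) and Hspe1 (71.8 ± 4.31 FPKM) came next and did not differ beyond their spread, and neither did Bag3 (33.8 ± 4.66 FPKM) and Hsph1 (31.7 ± 2.26 FPKM). Dnajb1 was at 14.8 ± 0.52 FPKM. The inducible copies Hspa1a (3.43 ± 0.176 FPKM) and Hspa1b (3.39 ± 0.534 FPKM) were lowest and within each other's spread. At 20 months Hspa1b was at 39.3 ± 16.5 FPKM and Hspa1a at 22.6 ± 8.99 FPKM. The wide spread of Hspa1b took in the means of Bag3 (53.2 ± 3.33 FPKM), Hsph1 (47.3 ± 6.49 FPKM) and Dnajb1 (29.4 ± 4.07 FPKM). In control organoids, whose table was normalized separately, Hspa8 again led at 494 ± 11.1 FPKM (SD, n = 3) and Hspa1a was lowest at 9.39 ± 0.399 FPKM.

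**Figure D2:**
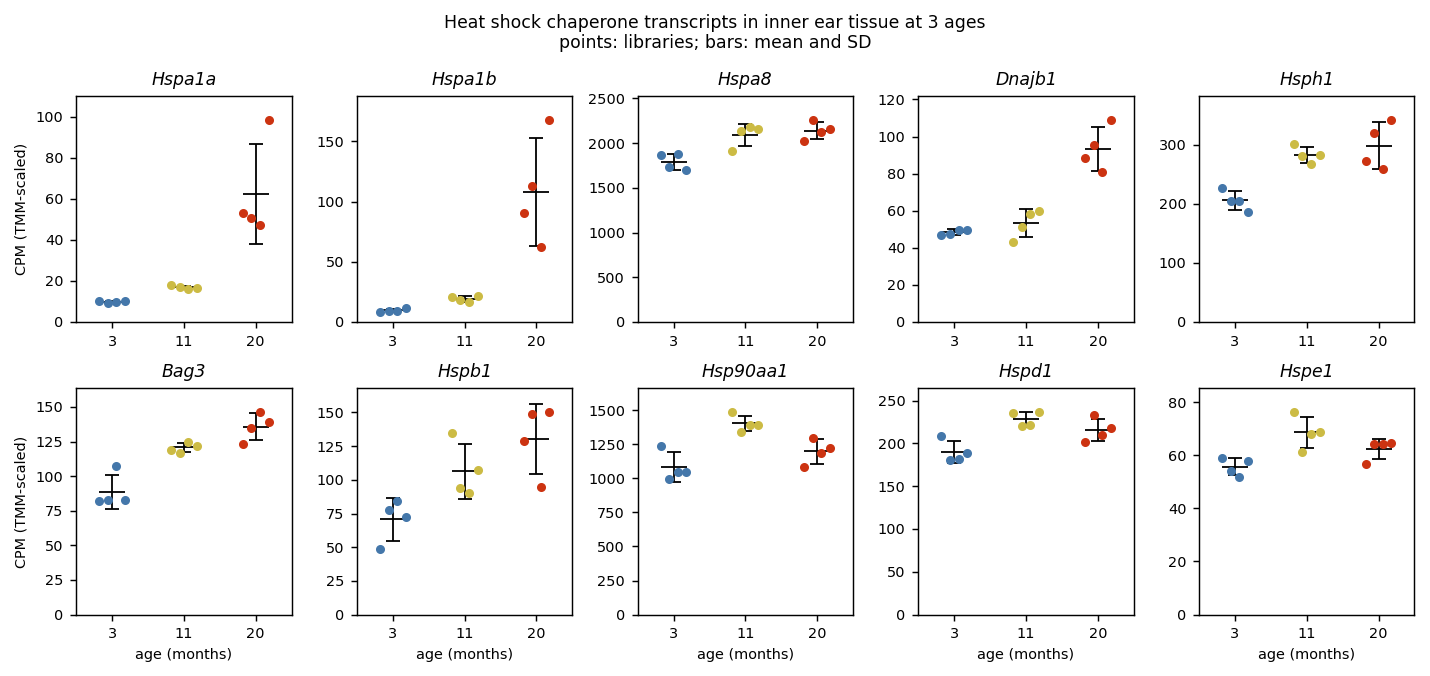
CPM of the 10 genes in each inner ear library at 3, 11 and 20 months (points; 4 libraries per age; bars, mean and SD; every y axis starts at 0). For Hspa1a and Hspa1b all 4 libraries of 20 months lie above all libraries of the younger ages, and replicate 4 of 20 months is the highest of them.

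Transcripts of the inducible HSP70 genes and their co-chaperones were higher in the inner ear at 20 than at 3 months, whereas those of HSP90 and of the mitochondrial chaperonin did not pass the test. By edgeR's quasi-likelihood test 7 of the 10 genes rose and 0 fell, against 12.0% of all 15525 genes tested that were called higher and 10.7% that were called lower. At an unadjusted p under 0.05, 9 were higher and 0 lower, where 19.2% and 17.3% of all genes were. DESeq2 called 8 higher and 0 lower, with 13.5% and 12.3% of all genes. The ages did not overlap, with 20 months higher, for 7 of the 10 and for 11.4% of all genes. The median log2 fold change of the 10 genes was 0.58, against 0.011 over all genes tested. Because the 10 genes were chosen with earlier results of these data known, these shares describe the set and do not test it. In bulk tissue, a change in the share of cells that express a gene and a change of its RNA per cell cannot be told apart.

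Hspa1a and Hspa1b encode the stress-inducible HSP70, in 2 intronless copies that lie 9951 bases apart on chromosome 17 (chr17:34969359-34972156 and chr17:34956429-34959238, both on the minus strand). Hspa1a was at 10.1, 8.97, 9.67 and 9.97 CPM at 3 months and at 52.9, 50.5, 47.1 and 98.4 CPM at 20 months. Hspa1b was at 8.25, 9.21, 9.34 and 11.6 CPM at 3 months and at 90.4, 113, 62 and 168 CPM at 20 months. The ages did not overlap for either copy, and replicate 4 of 20 months was the highest for both. Hspa1a rose 6.42-fold (log2 fold change 2.68, SE 0.21, edgeR's adjusted p = 3.79e-05), and without that replicate the log2 fold change was 2.37 (edgeR's adjusted p = 1.64e-08). Hspa1b rose 11.3-fold (log2 fold change 3.5, SE 0.27, edgeR's adjusted p = 6.94e-05), and without that replicate the log2 fold change was 3.2 (edgeR's adjusted p = 1.69e-05). Of all windows of 100 bases in the Hspa1b transcript 49.9% also occur in Hspa1a, so that reads cannot always be told apart between the copies, and an exon of Hspa1a overlaps the annotated gene Gm20481. Summed over both copies, which does not depend on how reads were split between them, the level was 19.3 ± 1.57 CPM at 3 months and 170 ± 67.6 CPM at 20 months (log2 fold change 3.14, 95% interval 2.64 to 3.65, edgeR's adjusted p = 4.36e-05). Whether reads that fit both copies were counted at all is not stated by any source used here, and the sum would not restore them.

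Hspa8, the HSP70 made in unstressed cells (chr9:40801276-40805202), was at 1698 to 1877 CPM at 3 months and at 2020 to 2261 CPM at 20 months. The ages did not overlap, and the rise was small (log2 fold change 0.26, SE 0.07, edgeR's adjusted p = 0.0202). Leaving out replicate 2 or 4 of the youngest group, or replicate 2 of the oldest, ended this call, at an adjusted p of up to 0.0699, and so did a fit of only these ages, at 0.0593, and the muscle and bone marker score as a covariate, at 0.25. Of the windows of 100 bases in its transcript 32.1% occur in other annotated genes, among them processed copies.

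Among the co-chaperones of HSP70, Dnajb1, the HSP40 protein that delivers clients to it (chr8:83608175-83612653), was at 47.1, 47.3, 49.8 and 49.5 CPM at 3 months and at 88.2, 95.4, 80.7 and 109 CPM at 20 months. The ages were well apart, with a log2 fold change of 0.95 (SE 0.11, edgeR's adjusted p = 0.000182). Hsph1, the HSP110 protein that acts as a nucleotide exchange factor (chr5:149616843-149636498), rose from 205 ± 16.6 to 298 ± 39.2 CPM (SD over 4 libraries; log2 fold change 0.54, SE 0.09, edgeR's adjusted p = 0.00172). Bag3, an exchange factor that links HSP70 to autophagy (chr7:128523583-128546981), was at 81.9, 82.7, 107 and 82.9 CPM at 3 months and at 123, 135, 146 and 139 CPM at 20 months. It rose by a log2 fold change of 0.61 (SE 0.09, edgeR's adjusted p = 0.000584), and replicate 3 was the highest of its group at both ages. None of these 3 genes shares a window of 100 bases with another annotated gene.

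Hspb1, which encodes the small heat shock protein HSP25 of the mouse (chr5:135887919-135889563), was at 48.4, 77.5, 84.4 and 72.1 CPM at 3 months and at 129, 149, 94.4 and 150 CPM at 20 months. The ages did not overlap, though replicate 3 of 20 months lay nearest to the younger group (log2 fold change 0.89, SE 0.2, edgeR's adjusted p = 0.00902). Of the windows of 100 bases in its transcript 42.7% also occur in the pseudogene Hsp25-ps1, so its counts are uncertain to that extent.

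The other 3 genes overlapped between 3 and 20 months. Hsp90aa1, the inducible HSP90 (chr12:110691036-110696395), was at 1082 ± 109 CPM at 3 and 1198 ± 90.6 CPM at 20 months (log2 fold change 0.15, 95% interval -0.03 to 0.32, edgeR's adjusted p = 0.215). Hspd1, which encodes the mitochondrial chaperonin HSP60 (chr1:55077833-55088243), was at 190 ± 12.6 and 216 ± 13.5 CPM (log2 fold change 0.18, 95% interval 0.04 to 0.32, edgeR's adjusted p = 0.056). DESeq2 called Hspd1 higher at an adjusted p of 0.0391. Hspe1, the lid of that chaperonin (chr1:55088148-55091317), was at 55.7 ± 3.3 and 62.4 ± 3.8 CPM (log2 fold change 0.16, 95% interval 0 to 0.32, edgeR's adjusted p = 0.128). The intervals of Hsp90aa1, Hspd1 and Hspe1 all lay below that of Dnajb1, 0.72 to 1.18, in the same comparison. Of the windows of 100 bases, 47.5% in the transcript of Hsp90aa1 also occur in other annotated genes. For Hspd1 the share was 26.9% and for Hspe1 0.347%, so the counts are uncertain to that extent.

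At 11 months, the middle age, 3 of the 10 genes were called higher than at 3 months and 0 lower, against 0.979% of all genes called higher and 0.580% called lower. Bag3 (121 ± 3.26 against 88.7 ± 12.4 CPM; log2 fold change 0.44, edgeR's adjusted p = 0.0279), Hsph1 (283 ± 14.1 against 205 ± 16.6 CPM; log2 fold change 0.46, edgeR's adjusted p = 0.0283) and Hsp90aa1 (1403 ± 58.6 against 1082 ± 109 CPM; log2 fold change 0.37, edgeR's adjusted p = 0.041) passed. Hspa1a was at 17.8, 16.8, 16.2 and 16.5 CPM and Hspa1b at 20.5, 18.6, 16.2 and 21.7 CPM at 11 months. Neither overlapped its 3-month level, and neither passed (log2 fold change 0.8 with edgeR's adjusted p = 0.0659 and log2 fold change 1 with edgeR's adjusted p = 0.079). In all, 9 of the 10 genes, all but Dnajb1, were higher at 11 months without overlap, as were 7.22% of all genes. At an unadjusted p under 0.05, 9 were higher, as were 8.77% of all genes, and DESeq2 called 9 higher, with 3.49% of all genes. The number called fell from 3 to 0 without replicate 2 or 4 of 3 months, without any single library of 11 months, or with the muscle and bone marker score as a covariate, under which 0 of all 15525 genes were called higher. With that covariate the log2 fold change was 0.15 for Bag3, 0.24 for Hsp90aa1 and 0.39 for Hsph1 (edgeR's adjusted p from 0.837 to 0.982). A fit of only these ages called 7 higher, with 3.58% of all genes. The summed HSP70 copies went from 19.3 to 36.1 CPM and did not pass (log2 fold change 0.9, edgeR's adjusted p = 0.0643).

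From 11 to 20 months 3 genes rose and 0 fell, against 7.87% of all genes called higher and 7.90% called lower (1 gene, Hsp90aa1, was lower at an unadjusted p under 0.05, as were 15.1% of all genes, and DESeq2 called it lower, with 11.2% of all genes). Hspa1a rose by a log2 fold change of 1.89 (SE 0.2, edgeR's adjusted p = 0.00303), Hspa1b by 2.49 (SE 0.26, edgeR's adjusted p = 0.00303) and Dnajb1 by 0.81 (SE 0.11, edgeR's adjusted p = 0.00342). By unadjusted p, these genes ranked 2, 4 and 13 of the 15525 genes tested. The 11-month libraries of Dnajb1, at 43.3, 51.4, 58.1 and 59.8 CPM, spanned the 3-month level, and those of 20 months lay above all of them. Bag3, Hsph1, Hspa8 and Hspb1 had log2 fold changes of 0.17, 0.08, 0.03 and 0.29 and did not pass. Hsp90aa1 was at 1081 to 1298 CPM at 20 months, below the 1344 to 1484 CPM of 11 months, with a log2 fold change of -0.23 (95% interval -0.4 to -0.05, edgeR's adjusted p = 0.0739). With the mucosal marker score as a covariate the log2 fold changes were 1.65 for Hspa1a, 1.81 for Hspa1b and 0.71 for Dnajb1, and none of the 3 passed (edgeR's adjusted p = 0.118, 0.0868 and 0.177). In that fit 0 of all 15525 genes were called in either direction. With the muscle and bone score Dnajb1 had a log2 fold change of 0.82 and missed the threshold (edgeR's adjusted p = 0.0528), in a fit that called 0.0322% of all genes higher. Against 3 months, all 3 genes kept their calls with either covariate.

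Markers of other cells moved with age beside these genes. All 15 macrophage and monocyte markers had counts in every inner ear library, and their sum was 219 to 307 CPM at 3 months, 451 to 530 CPM at 11 months and 520 to 877 CPM at 20 months, with 14 of 15 called higher at 20 than at 3 months. The 15 mucosal epithelium markers summed to 156 to 604 CPM, 106 to 182 CPM and 129 to 1354 CPM at the 3 ages, and of these Muc5ac and Scgb1a1 were at 0 at 3 and 11 months. The 14 skeletal muscle markers summed to 61.4 to 218 CPM, 39.1 to 48.5 CPM and 52.6 to 74.3 CPM. Bone markers summed to 4037 to 4497 CPM at 3 months, 2484 to 3477 CPM at 11 months and 2508 to 4044 CPM at 20 months. The 18 immediate early genes, which respond to growth signals and to handling of tissue, summed to 548 to 761 CPM, 642 to 735 CPM and 817 to 1077 CPM. Of these 18, 10 rose from 3 to 20 months, with Klf6 at a log2 fold change of 0.63, Ier3 at 0.98 and Klf4 at 0.74 (edgeR's adjusted p from 0.00012 to 0.00263). Schwann cell and neuron markers summed to 18258 to 21798 CPM at 3 months and 11999 to 18204 CPM at 20 months, with 8 of 12 called lower. The part of other cell types and of handling in the chaperone increase was not tested beyond the covariates named.

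For other chaperone genes the shares called between 3 and 20 months were near those of all genes. Of 89 genes tested in 8 lists of further chaperones, co-chaperones and heat shock factors, 12 rose and 8 fell from 3 to 20 months, against 12.0% and 10.7% of all genes, with a median log2 fold change of 0. From 3 to 11 months 2 of the 89 rose and 0 fell, against 0.979% and 0.580% of all genes. From 11 to 20 months 3 of the 89 rose and 10 fell, against 7.87% and 7.90% of all genes. Among the genes that rose from 3 to 20 months was Bag2, an exchange factor of HSP70 (log2 fold change 0.94, edgeR's adjusted p = 0.000745). So were the HSP40 genes Dnajb4 (0.4, edgeR's adjusted p = 0.00158) and Dnaja1 (0.35, edgeR's adjusted p = 0.00548). Hspa5, the HSP70 of the endoplasmic reticulum (0.32, edgeR's adjusted p = 0.00362), and the small heat shock protein gene Hspb8 (0.44, edgeR's adjusted p = 0.0417) rose too. The 3 genes of mitochondrial proteases and import that passed between 3 and 20 months all fell, Lonp1, Htra2 and Timm44, at log2 fold changes of -0.21, -0.28 and -0.21. Of the 14 genes of the cytosolic chaperonin TRiC and its partner prefoldin 0 passed in either direction. Hsf1, which encodes the heat shock factor itself, was at 42.9 to 58.8 CPM at 20 months and 44.7 to 56.3 CPM at 3 months (log2 fold change 0.02, SE 0.1, edgeR's adjusted p = 0.922).

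The genes whose levels over the 12 inner ear libraries were most like the mean pattern of Hspa1a, Hspa1b, Dnajb1 and Hsph1 were P4ha1, a collagen prolyl hydroxylase (Pearson r 0.987), Lgals3, a galectin of macrophages and other cells (0.968), and Cacna1g, a T-type calcium channel (0.961). Of the other chaperones, Bag3 had an r of 0.826, Hspb1 of 0.802, Hspa8 of 0.755 and Hsp90aa1 of 0.267 with the same pattern. Hsp90aa1 followed the mean pattern of Hspd1 and Hspe1 instead (r 0.941), and the genes most like that pattern outside the family were Ceacam10 (0.917), Echdc1 (0.917) and Aox4 (0.905). The patterns were not fully separate. Of the genes that make up the first, Hsph1 had an r of 0.789 with the second, Hspa1a of 0.369, Hspa1b of 0.364 and Dnajb1 of 0.195. These r values describe 12 libraries that fall into 3 ages, and no test was run on them.

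**Figure D3:**
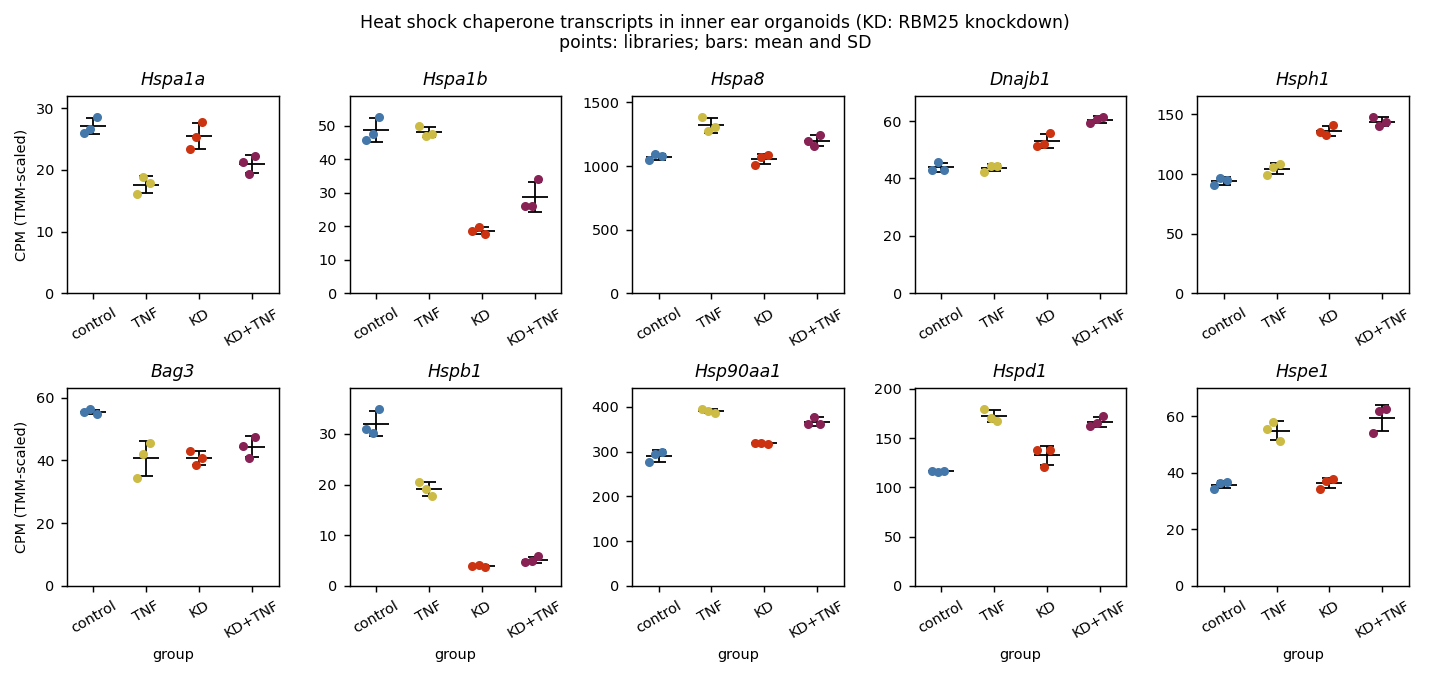
CPM of the 10 genes in each organoid library (points; 3 libraries per group; bars, mean and SD; KD, RBM25 knockdown; every y axis starts at 0). Hspb1 lies at 3.8 to 4.21 CPM with the knockdown alone, and Hspd1 and Hspe1 lie higher in both groups given TNF-α than in the groups without it.

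In organoids given TNF-α the chaperones moved in both directions: the mitochondrial chaperonin, HSP90 and the constitutive HSP70 were higher, and the small heat shock protein Hspb1, Hspa1a and Bag3 were lower. Compared with the controls 5 of the 10 genes rose and 3 fell, against 23.3% of all 15888 genes tested called higher and 24.2% called lower. Their median log2 fold change was 0.07, against -0.019 over all genes.

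Hspe1 was at 34.5, 36.4 and 36.8 CPM in the controls and at 55.5, 58.2 and 51.3 CPM with TNF-α (log2 fold change 0.62, SE 0.06, edgeR's adjusted p = 2.82e-07). Its partner Hspd1 was at 117, 116 and 117 CPM in the controls and at 179, 170 and 167 CPM with TNF-α (log2 fold change 0.56, SE 0.05, edgeR's adjusted p = 5.12e-08). The groups were far apart for both subunits of the chaperonin. Hsp90aa1 rose from 290 ± 12.6 to 390 ± 4.77 CPM (SD over 3 libraries; log2 fold change 0.43, edgeR's adjusted p = 2.67e-07), and Hspa8 from 1072 ± 24.9 to 1322 ± 59.1 CPM (log2 fold change 0.3, edgeR's adjusted p = 0.000108). Hsph1 rose slightly (log2 fold change 0.15, edgeR's adjusted p = 0.0142), a call that was lost without replicate 1 of the controls (edgeR's adjusted p = 0.0768).

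Hspb1 was at 31, 30.2 and 34.8 CPM in the controls and at 20.4, 19.2 and 17.7 CPM with TNF-α, with no overlap (log2 fold change -0.75, SE 0.09, edgeR's adjusted p = 1.73e-06). Bag3 was at 55.3, 56.2 and 54.9 CPM in the controls and at 34.4, 42 and 45.5 CPM with TNF-α, where the libraries were more spread (log2 fold change -0.45, SE 0.08, edgeR's adjusted p = 0.000251). Hspa1a fell from 26, 26.7 and 28.6 CPM to 16.1, 18.9 and 17.8 CPM (log2 fold change -0.62, SE 0.08, edgeR's adjusted p = 5.26e-06). Its copy Hspa1b stood at 45.8, 47.6 and 52.7 CPM in the controls and 49.8, 46.9 and 47.7 CPM with TNF-α, and the groups overlapped (log2 fold change -0.02, 95% interval -0.2 to 0.16, edgeR's adjusted p = 0.897). Summed, the copies gave 75.8 ± 4.84 and 65.8 ± 0.231 CPM (log2 fold change -0.2, edgeR's adjusted p = 0.018), a call that was lost without replicate 3 of the controls or any single TNF-α library (edgeR's adjusted p up to 0.114). Dnajb1 was at 43 to 45.7 CPM in the controls and 42.4 to 44.4 CPM with TNF-α (log2 fold change -0.01, 95% interval -0.11 to 0.1, edgeR's adjusted p = 0.945).

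**Figure D4:**
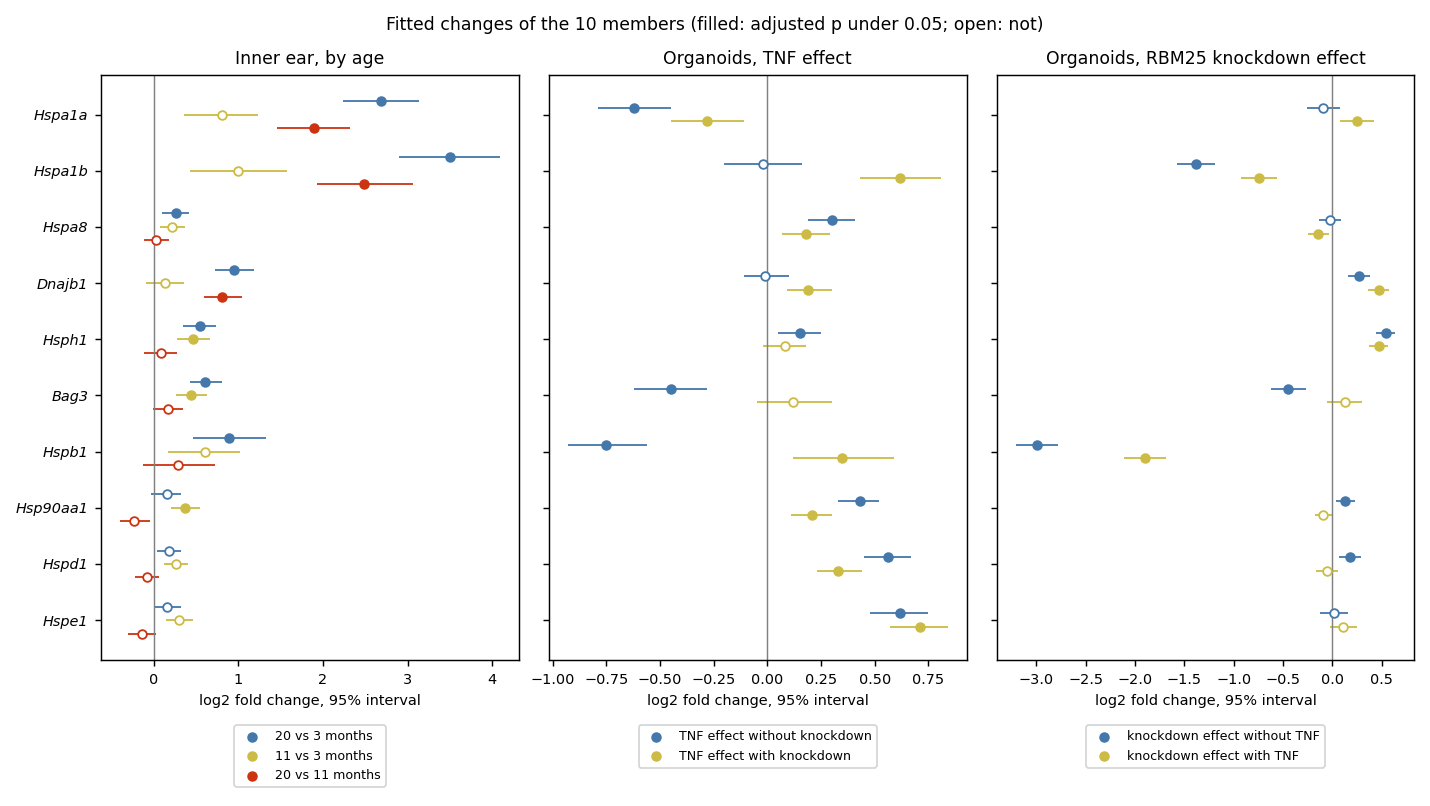
Log2 fold changes of the 10 genes with unadjusted 95% intervals (x axis, with a range that differs between panels) in the inner ear by age (left), for TNF-α with and without the knockdown (middle) and for the knockdown with and without TNF-α (right). Filled points passed an adjusted p under 0.05. Hspb1 and Hspa1b lie farthest to the left in the knockdown panel, and Hspe1 lies to the right with TNF-α in both settings.

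With the RBM25 knockdown, Hspb1 and 1 of the HSP70 copies had the largest fold changes of the 10 genes, both downward. Compared with the controls 4 of the 10 rose and 3 fell, against 24.4% of all genes called higher and 28.2% called lower, and the median log2 fold change was 0 against -0.028 over all genes.

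Hspb1 fell to 4.01, 4.21 and 3.8 CPM from 31, 30.2 and 34.8 CPM in the controls, a 7.97-fold lower level (log2 fold change -2.99, SE 0.1, edgeR's adjusted p = 8.88e-14). By unadjusted p it ranked 21 of 15888 genes. Hspa1b fell from 45.8, 47.6 and 52.7 CPM to 18.7, 19.8 and 17.6 CPM (log2 fold change -1.38, SE 0.09, edgeR's adjusted p = 1.32e-09). Hspa1a, whose promoter window has the same printed bases, was at 23.4, 25.3 and 27.7 CPM with the knockdown and overlapped the controls (log2 fold change -0.09, 95% interval -0.26 to 0.08, edgeR's adjusted p = 0.364). Summed, the copies fell from 75.8 ± 4.84 to 44.2 ± 1.79 CPM (log2 fold change -0.78, edgeR's adjusted p = 2.31e-08). Bag3 fell to 42.9, 38.5 and 40.8 CPM (log2 fold change -0.45, SE 0.08, edgeR's adjusted p = 0.000233), against 34.4, 42 and 45.5 CPM with TNF-α.

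In the other direction, Hsph1 rose from 90.6, 96.3 and 95.3 CPM to 135, 133 and 141 CPM (log2 fold change 0.54, SE 0.05, edgeR's adjusted p = 2.14e-08). Dnajb1 rose from 43, 45.7 and 43 CPM to 51.4, 51.9 and 55.8 CPM (log2 fold change 0.27, SE 0.05, edgeR's adjusted p = 0.00021). Hsph1 and Dnajb1, co-chaperones of HSP70, were thus higher while the summed inducible HSP70 was lower. Bag3, also a co-chaperone of HSP70, was lower as well. Smaller rises were those of Hspd1 (117 ± 0.439 to 132 ± 10.1 CPM; log2 fold change 0.18, edgeR's adjusted p = 0.00698) and Hsp90aa1 (log2 fold change 0.13, edgeR's adjusted p = 0.0178). The call of Hsp90aa1 was lost without replicate 1 of the controls (edgeR's adjusted p = 0.123) or replicate 2 of the knockdown (0.0543). Hspa8 (log2 fold change -0.02, 95% interval -0.13 to 0.09, edgeR's adjusted p = 0.726) and Hspe1 (0.02, 95% interval -0.12 to 0.16, edgeR's adjusted p = 0.802) did not pass.

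When TNF-α was present, the knockdown raised 3 genes and lowered 3, against 25.4% of all genes called higher and 26.9% called lower. Hspb1 was at 4.63, 4.92 and 5.82 CPM with both treatments against 20.4, 19.2 and 17.7 CPM with TNF-α (log2 fold change -1.9, SE 0.1, edgeR's adjusted p = 2.97e-11). Hspa1b was at 26.2, 26.2 and 34 CPM against 49.8, 46.9 and 47.7 CPM (log2 fold change -0.74, SE 0.09, edgeR's adjusted p = 2.07e-06). For both genes every library with both treatments lay below every TNF-α library. The summed copies fell by 0.4 on the log2 scale (edgeR's adjusted p = 7.36e-05). Hsph1 and Dnajb1 each rose by a log2 fold change of 0.47 (SE 0.05; edgeR's adjusted p = 1.51e-07 and 4.27e-07). Hspa1a rose by 0.25 (edgeR's adjusted p = 0.0169), a call lost without replicate 1 of TNF-α or replicates 1 or 3 of both treatments (edgeR's adjusted p up to 0.0963). Hspa8 fell by 0.14 on the log2 scale (edgeR's adjusted p = 0.0307), and this call was lost in a fit without a count filter, with DESeq2 size factors, on FPKM values and without any 1 of 3 libraries (adjusted p up to 0.103).

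TNF-α in organoids with the knockdown raised 7 genes and lowered 1, against 22.8% of all genes called higher and 22.0% called lower. Hspe1 rose from 34.5, 37.1 and 37.7 CPM to 54.2, 61.9 and 62.5 CPM (log2 fold change 0.71, SE 0.06, edgeR's adjusted p = 4.72e-08), and Hspd1 from 138, 121 and 138 CPM to 162, 165 and 172 CPM (log2 fold change 0.33, SE 0.05, edgeR's adjusted p = 3.5e-05). Hspa1b rose from 18.7, 19.8 and 17.6 CPM to 26.2, 26.2 and 34 CPM (log2 fold change 0.62, SE 0.09, edgeR's adjusted p = 2.86e-05), while Hspa1a fell from 23.4, 25.3 and 27.7 CPM to 21.3, 19.3 and 22.2 CPM (log2 fold change -0.28, SE 0.08, edgeR's adjusted p = 0.00893). The fall of Hspa1a was lost without replicate 3 of the knockdown (edgeR's adjusted p = 0.0531), and the summed copies did not pass (44.2 ± 1.79 to 49.8 ± 5.67 CPM; edgeR's adjusted p = 0.0507). Hspb1 rose by a log2 fold change of 0.35 (edgeR's adjusted p = 0.0139), which was lost without replicate 3 of both treatments (edgeR's adjusted p = 0.113) and in a fit of only these groups (0.0805). Hsp90aa1 (0.21), Dnajb1 (0.19) and Hspa8 (0.18) rose by less, and the call of Hspa8 was lost without replicate 3 of both treatments (edgeR's adjusted p = 0.0641). Bag3 (0.12) and Hsph1 (0.08) did not pass.

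Whether the effect of TNF-α differed with and without the knockdown was tested as an interaction: the log2 fold change by TNF-α in knockdown organoids minus the one in control organoids. The test called 3 genes with a difference above 0 and 2 with one below it, against 7.54% and 4.81% of all genes called in these directions. Hspb1 fell with TNF-α in control organoids and rose by less with it in knockdown organoids (difference on the log2 scale 1.1, SE 0.14, edgeR's adjusted p = 6.99e-05). The rise of Hspb1 in knockdown organoids lost its own call without replicate 3 of both treatments (edgeR's adjusted p = 0.113). For Hspa1b the difference was 0.64 (SE 0.12, edgeR's adjusted p = 0.00318) and for Bag3, which fell with TNF-α in control organoids, 0.57 (SE 0.12, edgeR's adjusted p = 0.00435). No single library, when left out, ended the interaction calls of these 3. Without replicate 3 of the knockdown Hspa1a (0.4, edgeR's adjusted p = 0.0344) and Dnajb1 (0.23, edgeR's adjusted p = 0.0482) also passed, which made 5. For the summed copies the difference was 0.38 (edgeR's adjusted p = 0.0156), and it missed the threshold without replicate 3 of the controls, 1 of the knockdown or 3 of both treatments (edgeR's adjusted p up to 0.0708). Hsp90aa1 (-0.22, edgeR's adjusted p = 0.0285) and Hspd1 (-0.23, edgeR's adjusted p = 0.0474) had a smaller log2 fold change with TNF-α in knockdown organoids. Their calls were lost at edgeR's adjusted p values of up to 0.0991 and 0.1, that of Hsp90aa1 without replicates 1 or 2 of the controls or 2 of the knockdown. That of Hspd1 was lost without any control library, replicates 1 or 3 of the knockdown or replicate 1 of both treatments. Hspe1, the partner of Hspd1, had a difference of 0.09 (95% interval -0.1 to 0.28, edgeR's adjusted p = 0.578).

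**Figure D5:**
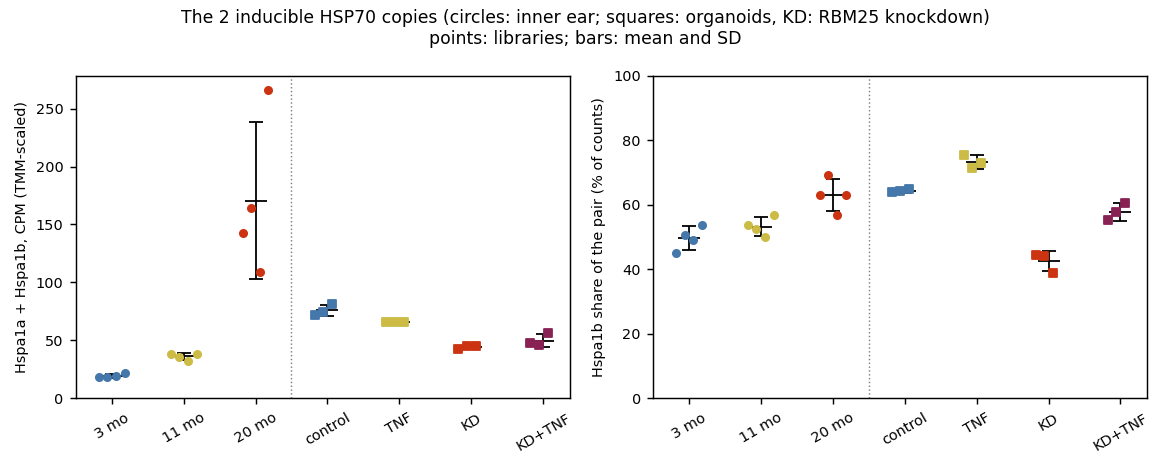
Summed CPM of Hspa1a and Hspa1b (left) and the share of their counts that Hspa1b took (right, percent) in each library (circles, inner ear; squares, organoids; bars, mean and SD; KD, RBM25 knockdown). The share runs from 38.9 to 44.4% with the knockdown alone to 71.3 to 75.5% with TNF-α alone.

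The balance between the inducible copies also differed between groups, in a comparison chosen after the values were seen. Hspa1b took 44.9 to 53.8% of their counts at 3 months, 49.9 to 56.8% at 11 months and 56.9 to 69.2% at 20 months, so that 20 months did not overlap the younger ages. In the organoids its share was 63.8 to 64.8% in the controls, 71.3 to 75.5% with TNF-α, 38.9 to 44.4% with the knockdown and 55.1 to 60.5% with both treatments, and no group overlapped another. Between 20 and 3 months the mean share differed by 13.5 percentage points (two-sided exact permutation p = 0.0286, the smallest 4 against 4 can give; adjusted over 7 comparisons, 0.1). Groups of 3 cannot reach an exact p below 0.1, and each of the 4 organoid comparisons gave that value (0.117 adjusted). The shares depend on how reads that fit both copies were assigned, which no source used here states.

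Markers of cell types also differed between organoid groups. The 12 supporting cell markers summed to 8450 to 8786 CPM in the controls, 4102 to 4952 CPM with TNF-α, 6681 to 6791 CPM with the knockdown and 3730 to 3920 CPM with both treatments. Otog alone, which encodes otogelin, was at 5223, 1572, 2649 and 1377 CPM on average in these groups, and with TNF-α 2 of the 12 markers rose and 3 fell (median log2 fold change -0.04). With the knockdown 3 rose and 7 fell (median -0.67). Hair cell markers summed to 372 to 386, 314 to 362, 573 to 822 and 434 to 534 CPM in the same order. Of 11 tested, 9 were called higher and 1 lower with the knockdown, against 24.4% and 28.2% of all genes. Brain markers (145 to 152 CPM in the controls, 346 to 364 CPM with the knockdown; 8 of 10 tested called higher and 1 lower) and Schwann cell and neuron markers (107 to 111 and 208 to 231 CPM; 7 of 10 called higher and 1 lower) also had higher sums with the knockdown. Fibrocyte markers summed to 3073 to 3258, 1650 to 1815, 3509 to 3944 and 2742 to 3008 CPM in the order above. Most of that sum with and without TNF-α was Col11a2 (2632 CPM in the controls and 1201 CPM with TNF-α), while Vim rose (83.5 to 242 CPM), and 1 of 8 tested rose and 3 fell with TNF-α (median log2 fold change 0.11). Of the 14 skeletal muscle markers 5 passed the filter on low counts, and their sum, 432 to 945 CPM, was mostly Mybpc1 (917, 595, 563 and 423 CPM on average in the same order), with Myh1 or Myh2 at 0 in 3 of the groups. Macrophage markers summed to 1.55 to 2.11 CPM in the controls, 3.42 to 5.66 CPM with TNF-α, 1.39 to 1.89 CPM with the knockdown and 11.5 to 14.2 CPM with both treatments. Of the 4 tested, Aif1 and Cd14 rose with TNF-α, and 6 of the 15, among them Cx3cr1, Adgre1 and C1qa, are not listed in this table. The part of cell composition in the chaperone changes was not tested.

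In the organoids the wider network was read beside the 10 genes. Of 86 further network genes tested 39 rose and 15 fell with TNF-α (median log2 fold change 0.14), where 23.3% of all genes were called higher and 24.2% lower. Of the 14 genes of the cytosolic chaperonin TRiC and prefoldin 12 rose and 0 fell, with Cct7 at a log2 fold change of 0.59, Cct2 at 0.55 and Tcp1 at 0.5. Of 12 genes of HSP90 and its co-chaperones 8 rose and 0 fell, among them the kinase-specific co-chaperone Cdc37 (0.44), Fkbp4 (0.36) and Stip1, which bridges HSP70 and HSP90 (0.3). Hspa9, the HSP70 of mitochondria, rose by 0.48 (edgeR's adjusted p = 1.43e-07), while Hspa2 (-0.65) and Hspa4l (-0.51) fell. The small heat shock protein Cryab fell by 0.69 on the log2 scale (edgeR's adjusted p = 1.4e-08). In knockdown organoids TNF-α again raised 12 of the 14 TRiC and prefoldin genes, and 7 of the 12 of HSP90 and its co-chaperones with 1 lower. For these lists the interaction called 0 of 14 and 1 of 12 genes, the latter being Hsp90b1, the HSP90 of the endoplasmic reticulum (-0.3, edgeR's adjusted p = 0.0192).

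With the knockdown 25 of the 86 network genes rose and 18 fell (median log2 fold change 0), where 24.4% of all genes were called higher and 28.2% lower. Hspa2 had the largest fall among the other HSP70 genes (log2 fold change -1.6, edgeR's adjusted p = 8.13e-10), and Hspa5 and Hyou1 of the endoplasmic reticulum rose (0.53 and 0.42). The small heat shock protein genes Hspb6, Hspb2 and Cryab rose (0.78, 0.78 and 0.24), while Hspb1 of the same class fell. With TNF-α present, the knockdown raised all 5 of the other small heat shock protein genes tested. Hsf1 fell with TNF-α (log2 fold change -0.31, edgeR's adjusted p = 8e-04) and with the knockdown (-0.3, edgeR's adjusted p = 0.00112), from 43.9 to 48.2 CPM in the controls to 33 to 40.7 and 37.6 to 38.6 CPM. Of the 18 immediate early genes 12 fell and 3 rose with TNF-α, and the interaction test called 15 of the 18 above 0 and 0 below, against 7.54% and 4.81% of all genes. Their sum was 3471 to 3514 CPM in the controls, 2248 to 2485 CPM with TNF-α, 3576 to 3808 CPM with the knockdown and 3949 to 4109 CPM with both treatments. Their part in the chaperone changes was not tested.

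Over the 12 organoid libraries the genes most like the mean pattern of Hspa1a, Hspa1b, Dnajb1 and Hsph1 were Bcl2l1, an inhibitor of apoptosis (Pearson r 0.974), Tsen34, a subunit of the tRNA splicing endonuclease (0.966), and Slc16a10, an amino acid transporter (0.959). That pattern averages genes that moved in different directions here. The genes most like Hspd1 and Hspe1 were the adhesion molecule genes Icam1 (0.986) and Vcam1 (0.985) and the gene Tbc1d14 (0.986). Hsp90aa1 (0.948) and Hspa8 (0.854) followed the same pattern, and Hspa1a ran against it (-0.852). As in the inner ear, these values describe 12 libraries in 4 groups and were not tested.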

How the data were processed

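Expression was measured by bulk RNA sequencing (TruSeq libraries, which keep no strand) in 12 inner ear and 12 organoid libraries. The deposited count tables hold whole reads per gene, not normalized by the authors. FPKM was deposited too, scaled by the authors to depth and gene length: every FPKM value checked (genes of at least 100 counts, within 0.1%) was the count over the library total and 1 length per gene. Trimmomatic, HISAT2, HTSeq and DESeq2 are listed without versions or settings, with the build mm10, per the submitters' processing notes.

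All genes of a count table entered 1 fit in edgeR 4.0.16, R 4.3.3 (TMM, filterByExpr, robust quasi-likelihood), with 1 coefficient per group, keeping 15525 of 18440 genes in the inner ear and 15888 of 25190 in the organoids. All 8 comparisons were tested with the two-sided quasi-likelihood F-test, with Benjamini-Hochberg adjustment over all genes tested and a threshold of 0.05, and the pipeline was tested on simulated data. SEs are the log2 fold change over the root of F, and intervals are 95% and unadjusted. The members and lists were chosen with earlier results of these data known. From each pathway list and the immediate early list, up to 3 genes with the smallest p among those called were named, as far as room allowed. The share of the HSP70 copies was compared after the values were seen. Proteins are not analysed here. Hsf1 and Rbm25 were named for their roles. Likeness is Pearson's r of log2(CPM + 1) with the mean z-score of the pattern genes, among genes of at least 1 CPM on average with no predicted name. In every group the replicates were further apart than counting noise allows (chi-square per degree of freedom 4.73 to 90). Coordinates and promoters are RefSeq's for GRCm38.p6, exons and transcripts those of GENCODE vM21. Exact permutation tests used SciPy 1.17.1, DESeq2 1.42.0 and limma 3.58.1 gave alternatives, and matplotlib 3.10.9 drew the figures.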

Additional observations from a re-analysis of the deposited data

Results flagged for a closer look

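Dixon's test at the 95% level was run for each of the 10 genes at each age, which made 30 tests. In 4 of the 30, 1 of the 4 libraries stood apart from the others. Independent tests would give about 1 in 20 by chance, but these all used the same 12 libraries and are not independent. Replicate 3 of 3 months was highest for Bag3, at 107 CPM against 81.9 to 82.9 CPM in the others. Replicate 4 of 20 months was highest for Hspa1a, at 98.4 CPM against 47.1 to 52.9 CPM. Replicate 1 of 11 months was lowest for Hspa8, at 1910 CPM against 2137 to 2176 CPM. Replicate 1 of 20 months was lowest for Hspe1, at 56.7 CPM against 64.1 to 64.6 CPM.

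The effect of TNF-α differed with and without the RBM25 knockdown for 5 genes by the interaction test. The difference on the log2 scale was 1.1 for Hspb1, 0.64 for Hspa1b and 0.57 for Bag3, and it was -0.22 for Hsp90aa1 and -0.23 for Hspd1.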

How the results depend on the processing

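Of 1274 values of single genes under the alternatives, 1183 kept their side of the threshold, 64 lost their call and 27 gained one. Where a value was called in either setting, 0 reversed direction. Values called in neither setting could change sign and still count among the 1183. For Hspb1 at 20 against 11 months the log2 fold change was 0.29, and -0.23 with the mucosal score as a covariate. With each library left out in turn, the genes called higher at 20 against 3 months were 6 to 8 and those called lower 0. The number called higher at 11 against 3 months was 0 to 3 with a library left out, 9 with DESeq2, 7 in a fit of only these ages and 0 once muscle and bone markers were a covariate. The summed HSP70 copies (0.9, edgeR's adjusted p = 0.0643) did not pass in 13 of 17 settings, with log2 fold changes of 0.82 to 1.15 and an adjusted p of up to 0.785, and passed at 0.9 with adjusted p values of 0.000465 with DESeq2, 0.000351 in a fit of only these ages, 0.0483 with limma on log2(FPKM + 0.1) and 0.0485 with the replicate block. At 20 against 11 months 0 genes were called higher with the mucosal score, and DESeq2 called 1 lower. The summed copies lost their call at 1.75 (edgeR's adjusted p = 0.0995) with the mucosal score, and at 2.16 (0.0562) with the score of muscle and bone markers.

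In the organoids, for TNF-α against control the summed copies ranged from -0.24 to -0.15 with a library left out (edgeR's adjusted p up to 0.114). For both treatments against the knockdown the genes called lower were 0 to 1 with a library left out and 0 with the copies summed, and the summed copies ranged from 0.06 to 0.22. They passed at 0.16 and 0.17 with limma on log2(FPKM + 1) and log2(FPKM + 0.1) (adjusted p = 0.047 and 0.0466) and at 0.17 with the replicate block (edgeR's adjusted p = 0.0354). They also passed at 0.22 without replicate 2 of both treatments (edgeR's adjusted p = 0.013). For the interaction, 3 to 5 genes were called higher and 0 to 2 lower with a library left out, 1 lower with the replicate block, and the summed copies ranged from 0.25 to 0.41. The labels do not say that replicate numbers pair the samples. Correlations of same-numbered deviations ran from -0.27 to 0.3, and for the knockdown against control they were 0.3, 0.024 and 0.23. Whether equal numbers share a batch cannot be told from these values, so the block says little of the design. The causes of these losses and gains were not tested.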
